A study of Rattus norvegicus with 12 samples.

Results

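The genes described here are 34 enzymes and regulators of central carbon metabolism in the mitochondrion, out of 18469 genes in the expression table: the tricarboxylic acid (TCA) cycle, the pyruvate dehydrogenase (PDH) complex with its kinases and phosphatases, the enzymes that feed carbon into the cycle, and the enzymes of the malate-aspartate shuttle. They were chosen as a named list of gene symbols, and the rule that picked them uses the symbol alone. The list itself was drawn up with earlier results of these data known. All 34 had a row and passed the filter on low counts in every comparison. RNA was sequenced from neonatal rat ventricular myocytes (NRVMs), primary heart muscle cells of Sprague-Dawley rat pups that respond to phenylephrine (PE), an alpha-adrenergic agonist, with hypertrophic growth. The 12 libraries fell into 4 groups of 3 independent biological replicates. NRVMs carried either a negative control siRNA (siNeg) or an siRNA against Slc25a26 (siSlc25a26), the mitochondrial carrier that imports S-adenosylmethionine, and each siRNA was combined with no PE or with PE, given for 36 h from 12 h after transfection. The groups are called siNeg, siNeg PE, siSlc25a26 and siSlc25a26 PE, and every group, the controls included, was transfected. The pups were no older than 3 days by the study's methods. The sequences of the siRNAs are not given in the sources used here, and a single siRNA label stands for the knockdown. The paper that cites these data describes them with an siRNA against Nap1l5, a nucleosome assembly protein, and with a later and longer PE treatment, whereas the sample labels name Slc25a26 and the times above. The labels were followed, and the target of the siRNA in every comparison between siRNAs is therefore the one they state.

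The TCA cycle oxidises the acetyl group of acetyl-CoA to carbon dioxide and passes the electrons to the respiratory chain. Pyruvate enters it through the PDH complex, which the PDH kinases switch off by phosphorylation and the PDH phosphatases switch on again, or as oxaloacetate through pyruvate carboxylase. The malate-aspartate shuttle uses malate dehydrogenases and aspartate transaminases on both sides of the inner membrane to carry reducing equivalents from glycolysis into the mitochondrion. Heart muscle, which works on fatty acids and carbohydrates side by side, holds these enzymes at high levels.

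Slc25a26 itself stood at 33.2, 31.6 and 29.3 CPM (siNeg), 113, 106 and 86.2 CPM (siNeg PE), 15.8, 14.9 and 14.7 CPM (siSlc25a26) and 102, 106 and 98.8 CPM (siSlc25a26 PE, as labelled). Without PE it was 2.11-fold lower in siSlc25a26 than in siNeg (log2 fold change -1.08, SE 0.080, edgeR adjusted p = 1.08e-05), and the groups did not overlap. Under PE the libraries labelled siSlc25a26 PE were not lower than siNeg PE (log2 fold change -0.01, edgeR adjusted p = 0.969), so these libraries do not show the knockdown in their own RNA and are named by their label throughout. Nap1l5 stood at 2.54, 3.47 and 4.72 CPM (siNeg), 13.5, 15.9 and 19.4 CPM (siNeg PE), 1.40, 1.95 and 2.74 CPM (siSlc25a26) and 8.78, 8.18 and 6.76 CPM (siSlc25a26 PE, as labelled). It was 2.07-fold lower under PE as labelled (log2 fold change -1.05, SE 0.15, edgeR adjusted p = 0.000636), without overlap. Without PE it was 1.79-fold lower (log2 fold change -0.84, SE 0.29, edgeR adjusted p = 0.0397), where the groups overlapped and the call held in 2 of 6 fits that left out a library (-1.12 to -0.61). From these values alone the target of the siRNA cannot be told apart. Total counts were 24770972 to 28709049 per library. The natriuretic peptide genes Nppa and Nppb, markers of the hypertrophic response, rose with PE in both siRNA groups. The rises were 24.71-fold and 41.31-fold in siNeg and 22.86-fold and 40.06-fold in siSlc25a26. Their levels also differed between the siRNAs. Without PE they were 2.21-fold and 3.91-fold higher in siSlc25a26 than in siNeg (edgeR adjusted p = 0.000562 and 8.73e-05). Under PE, as labelled, they were 2.03-fold and 3.76-fold higher (edgeR adjusted p = 0.000259 and 0.000493). All 12 cardiomyocyte markers looked up were detected in every group, and their summed level ranged over 40084 to 41689, 63627 to 70912, 38043 to 42011 and 82142 to 88246 CPM in the order of the 4 groups given above. The 10 fibroblast markers summed to 21537 to 23671, 11729 to 12183, 12559 to 14092 and 8779.5 to 9578 CPM, and the 7 smooth muscle and mural markers to 3427 to 3705, 1770.2 to 2213, 1826 to 2098 and 2078 to 2167 CPM. The 8 endothelial markers summed to no more than 33.7 CPM and the 10 macrophage and leukocyte markers to no more than 134 CPM in any library. Emcn had a mean of 3 counts per library or less in all groups, and C1qb had one in siNeg PE. CPM here means a count scaled to library size with TMM factors, a level that compares libraries for a gene and not genes with each other. In bulk RNA, fewer cells of a type and less RNA per cell cannot be told apart.

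Per gene length, the members ranged widely in siNeg. On the FPKM scale, which divides by gene length and library total, the mitochondrial NADP-dependent isocitrate dehydrogenase Idh2 led with 896 ± 40.9 FPKM (SD, n = 3), followed by the mitochondrial malate dehydrogenase Mdh2 with 808 ± 41.5 FPKM and its cytosolic partner Mdh1 with 543 ± 36.9 FPKM. The lowest were the PDH phosphatase Pdp2 with 3.18 ± 0.0929 FPKM, the malic enzyme Me2 with 6.10 ± 0.255 FPKM and the kinase Pdk4 with 6.96 ± 1.27 FPKM. Of the 33 pairs of neighbours in this order, 15 overlapped between their siNeg libraries. Idh2, Mdh2 and Mdh1 each stood clear of the gene below, whereas Sdhc at 412 ± 17.2 FPKM overlapped Got2 at 388 ± 9.89 FPKM, and Pdk4 overlapped Me2. Among the subunits of the PDH complex the levels were 123 ± 7.09 FPKM for Pdhb, 121 ± 10.4 FPKM for Pdha1, 79.6 ± 0.246 FPKM for Dlat, 35.0 ± 6.01 FPKM for Dld and 20.8 ± 0.45 FPKM for Pdhx, and the first pair overlapped.

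PE in siNeg cells was associated with higher levels of 17 of the 34 members and lower levels of 4, and 13 did not pass. A gene passed at an adjusted p under 0.05 in the quasi-likelihood test of edgeR, after Benjamini-Hochberg adjustment over all genes tested. Beside the fits that left out a library, each comparison was refitted under 9 other settings (DESeq2, limma-voom, DESeq2 size factors, other filters, FPKM with either pseudocount, a replicate block, all 12 libraries in 1 fit), and the difference between PE effects under 8 of them. Of all 13719 genes tested, 25.2% were higher and 24.3% lower, so the share of members that were higher was above that of all genes and the share that were lower was below it. The median log2 fold change was 0.18 over the members and 0.00016 over all genes. Above 1.5-fold, 4 members were higher (Pdha1, Dld, Me2 and Idh3a), a share close to the 12.4% of all genes. Only 1 was lower by that much (Pdk2, background 8.24%). Without siNeg PE replicate 2 the number of lower members went from 4 to 2, as Idh3g and Suclg2 no longer passed. On the FPKM scale the split was 15 higher and 7 lower, beside 2914 higher and 3822 lower of all 13719 genes (log2 of FPKM + 1).

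In cells carrying siSlc25a26, comparing the libraries labelled siSlc25a26 PE with siSlc25a26, 17 members were higher and 8 lower. The background was 26.4% higher and 26% lower of 13776 genes, so the share of lower members was close to that of all genes. The member median was 0.15 on the log2 scale and that of all genes -0.0036. Fold changes above 1.5 were seen for 7 members that were higher (Pdha1, Idh3a, Ogdh, Me2, Pc, Dlat and Dld, background 10.1%) and 2 that were lower (Pdk2 and Pdk4, background 10.4%). The PE comparisons in siNeg and in siSlc25a26 share no library. Of the 17 members higher in each, 16 were higher in both, with Pdk3 called in siNeg and Mdh2 in siSlc25a26. The 4 members that were lower in siNeg were also among the 8 lower in siSlc25a26. The share of all genes with the same call in both PE comparisons was not computed. These counts depend on the scale: FPKM, which has no TMM factor, moved the median of all genes in the siSlc25a26 comparison to -0.13 (log2 of FPKM + 1) and the split of members to 11 higher and 14 lower. On that scale 2015 of all 13776 genes were higher and 5653 lower. The share of lower members was thus again close to that of all genes, and the share of higher members was above it. On both FPKM scales the rises of Mdh2, Sdhb, Sucla2, Idh3b, Pdp2 and Pdhb in that comparison no longer passed, with values from -0.036 to 0.14, and Got1, Got2, Idh1, Sdha, Sdhc and Sdhd were called lower, at -0.28 to -0.18. Relative to the median of all genes, the member median was 0.15 in the counts and 0.082 on that FPKM scale.

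Between the siRNAs most members differed in the same direction. Without PE, 21 members were lower and 2 higher in siSlc25a26 than in siNeg, against a background of 21.7% lower and 23.3% higher of 13829 genes. The member median was -0.22 on the log2 scale beside 0.015 for all genes. The changes were small, and without siNeg replicate 1 or 2 or siSlc25a26 replicate 1 or 2 the higher members went from 2 to 1. Pc alone among the members passed 1.5-fold (background 7.2% lower, 8.92% higher). Under PE, 22 members were lower and none higher in the libraries labelled siSlc25a26 PE than in siNeg PE, where 20.1% of 13671 genes were lower and 20.1% higher. At an unadjusted p under 0.05, 0 members were higher in this comparison by edgeR, and 0 passed the adjusted threshold with DESeq2, limma-voom or limma on FPKM. The member median was -0.31 beside -0.0028 for all genes, and no member passed 1.5-fold (background 8.1% lower). These comparisons share no library, and 17 members were lower in both, which is 17 of 21 and 17 of 22. The share of all genes lower in both was not computed. Since Slc25a26 RNA did not pass in the PE comparison, the direction there rests on the labels.

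**Figure D1:**
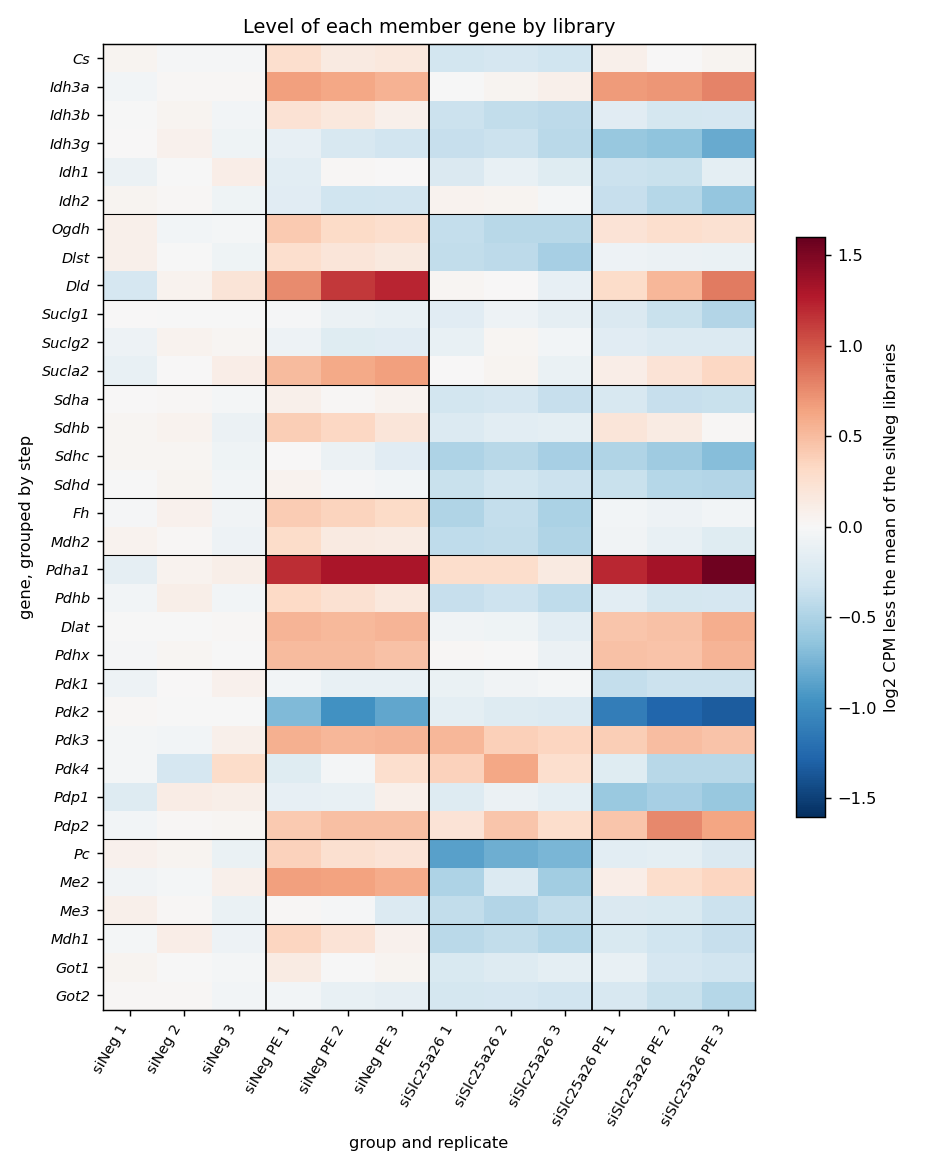
Level of each of the 34 members (rows, grouped by step) in each of the 12 libraries (columns), as log2 CPM less the mean of the siNeg libraries; red is higher and blue lower. Pdha1 is the reddest row and Pdk2 the bluest in both PE groups, and most rows of the siSlc25a26 columns are pale blue, with Pc the bluest there.

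**Figure D2:**
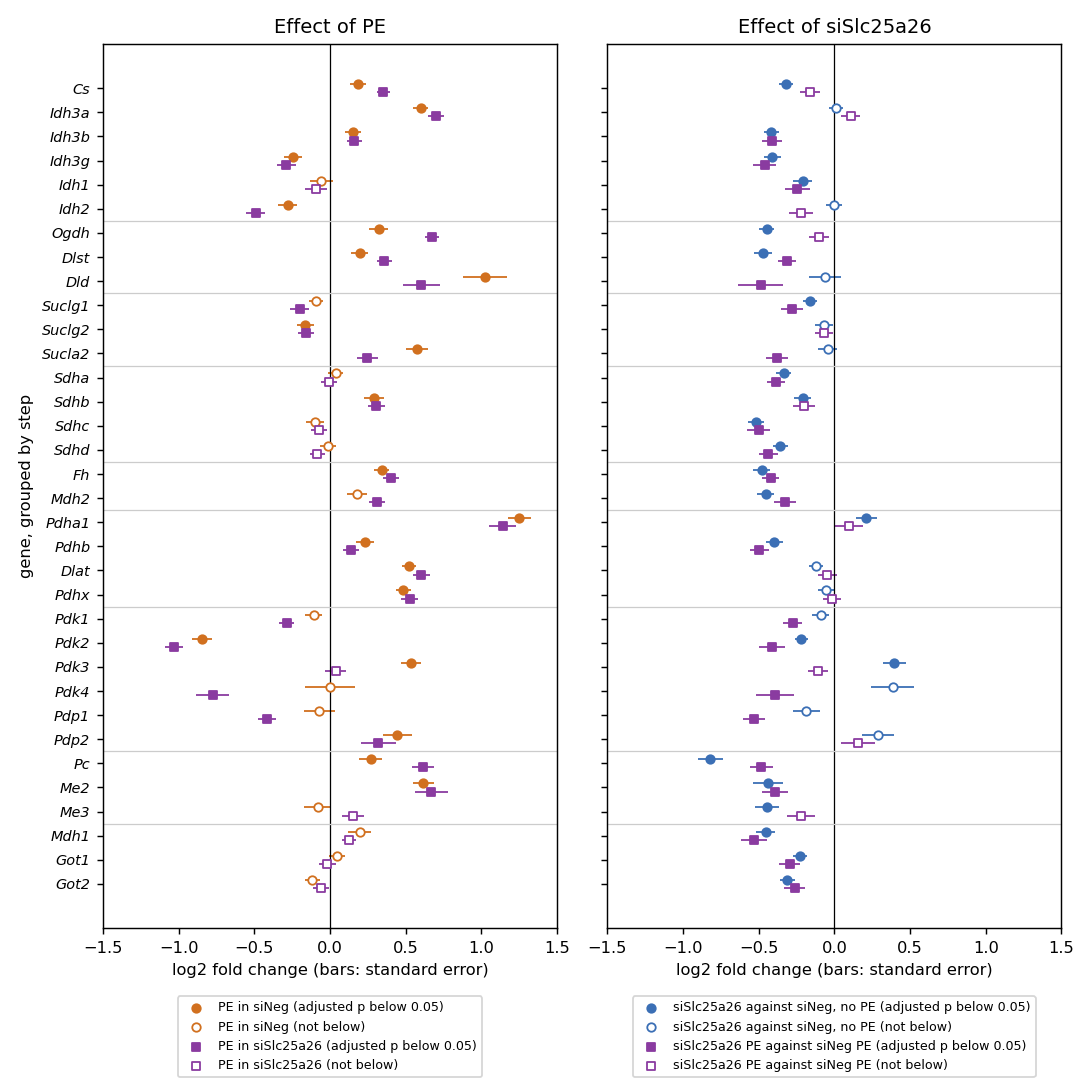
Log2 fold change of each member (vertical axis, grouped by step) with its standard error as a bar, for PE in siNeg and in siSlc25a26 (left) and for siSlc25a26 against siNeg without and with PE (right); filled symbols passed an adjusted p under 0.05, and siSlc25a26 PE is the group as labelled. On the left the members spread to both sides, from Pdk2 to Pdha1, whereas on the right 29 of 34 points without PE and 31 of 34 under PE lie below 0.

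The sequences just upstream of 4 members are given as examples. Pdha1 and Dld had the largest rises among the members with PE in siNeg, and Pdk2 had the largest fall there. Sucla2 was one of 4 members whose PE effect differed between the siRNAs. Such calls were about as frequent among all genes (5.48% higher and 5.73% lower). The call of Sucla2 passed in 4 of 12 fits that left out a library. Each run holds 160 bases before and 10 bases from the annotated start of RefSeq, assembly GRCr8, 5′ to 3′ on the gene's strand. Capitals mark a match to the NRF1 element or to the E-box CACGTG.
Pdha1, chrX:38508998-38509167, plus strand: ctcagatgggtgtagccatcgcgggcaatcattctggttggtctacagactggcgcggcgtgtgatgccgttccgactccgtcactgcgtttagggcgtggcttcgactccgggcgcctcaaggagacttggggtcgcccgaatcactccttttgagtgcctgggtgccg
Dld, chr6:53652338-53652507, minus strand: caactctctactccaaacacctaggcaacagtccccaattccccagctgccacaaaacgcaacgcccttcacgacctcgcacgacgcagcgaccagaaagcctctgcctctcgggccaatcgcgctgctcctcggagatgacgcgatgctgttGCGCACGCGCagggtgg
Sucla2, chr15:55161734-55161903, plus strand: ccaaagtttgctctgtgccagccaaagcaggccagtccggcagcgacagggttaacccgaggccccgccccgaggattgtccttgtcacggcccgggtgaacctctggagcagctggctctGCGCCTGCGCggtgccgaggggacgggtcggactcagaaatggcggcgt
Pdk2, chr10:80483903-80484072, minus strand: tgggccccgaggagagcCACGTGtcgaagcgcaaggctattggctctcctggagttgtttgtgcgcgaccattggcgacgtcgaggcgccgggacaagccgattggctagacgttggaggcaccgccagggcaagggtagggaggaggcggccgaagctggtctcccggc

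Of the 34 members 30 had an entry among promoters of 250 bases before to 50 after the start, and Idh3a, Pdp1, Pdp2 and Pc had none. The NRF1 element, searched on both strands, was in 3 of the 30 (Dld, Sucla2 and Sdha) and in 4.25% of all 33469 promoters of that length. In Dld it lies at bases -7 to 3 and in Sucla2 at -39 to -30 from the start. The E-box was in Pdk2 (-143 to -138), Ogdh and Pdhb, and in 6.42% of all promoters. The ERR element TCAAGGTCA and its core AAGGTCA, which overlap each other, were in Sdhd, and in 0.43% and 4.61% of all promoters. Pdha1 held none of these letters in this window. These matches are letters in a window and not measured sites.

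All 4 subunits specific to the PDH complex were called higher with PE in both siRNA groups, and the sizes differed between them. Among all genes, 25.2% were higher in siNeg and 26.4% in siSlc25a26. The call of Pdhb in siSlc25a26 was not stable. It held in 1 of 6 fits that left out a library and under 4 of the 9 other settings. Pdha1, the catalytic alpha subunit that the PDH kinases phosphorylate, rose most. Its level was 291, 333 and 343 CPM (siNeg), 727, 797 and 797 CPM (siNeg PE), 393, 390.3 and 356 CPM (siSlc25a26) and 741, 806 and 946 CPM (siSlc25a26 PE, as labelled). Every PE library was above every library without PE. The increase was 2.38-fold in siNeg (log2 fold change 1.25, SE 0.076, edgeR adjusted p = 1.77e-05) and 2.21-fold in siSlc25a26 (log2 fold change 1.14, SE 0.090, edgeR adjusted p = 1.15e-05). Without PE, Pdha1 was also slightly higher in siSlc25a26 than in siNeg (log2 fold change 0.21, edgeR adjusted p = 0.0363), a call that was lost without siNeg replicate 1 or 2 or siSlc25a26 replicate 1 or 2 (log2 fold change 0.14 to 0.23).

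Its partner in the same heterotetramer, the beta subunit Pdhb, rose by 1.17-fold with PE in siNeg (log2 fold change 0.23, SE 0.059, edgeR adjusted p = 0.0129). In siSlc25a26 the rise of Pdhb was 1.10-fold (log2 fold change 0.14, edgeR adjusted p = 0.0425). That call was lost when any library other than siSlc25a26 PE replicate 3 was left out (0.11 to 0.16), and on the FPKM scale the value was -0.036. Pdhb was lower in siSlc25a26 than in siNeg without PE (log2 fold change -0.40, edgeR adjusted p = 0.000559) and, as labelled, under PE (log2 fold change -0.49, edgeR adjusted p = 0.000465), where the paired subunit Pdha1 had a log2 fold change of 0.10 that did not pass. Dlat, the dihydrolipoamide acetyltransferase core, stood at 235, 237 and 240.0 CPM (siNeg), 345, 340.0 and 346 CPM (siNeg PE), 227, 226 and 212 CPM (siSlc25a26) and 321, 329 and 354 CPM (siSlc25a26 PE, as labelled). The libraries with PE lay above those without, by 1.44-fold in siNeg (log2 fold change 0.52, SE 0.046, edgeR adjusted p = 8.77e-05) and 1.52-fold in siSlc25a26 (log2 fold change 0.60, SE 0.057, edgeR adjusted p = 3.23e-05). Pdhx, which binds the Dld subunit to that core, rose 1.40-fold and 1.44-fold. Neither Dlat nor Pdhx passed between the siRNAs, with log2 fold changes of -0.12 and -0.05 without PE.

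**Figure D3:**
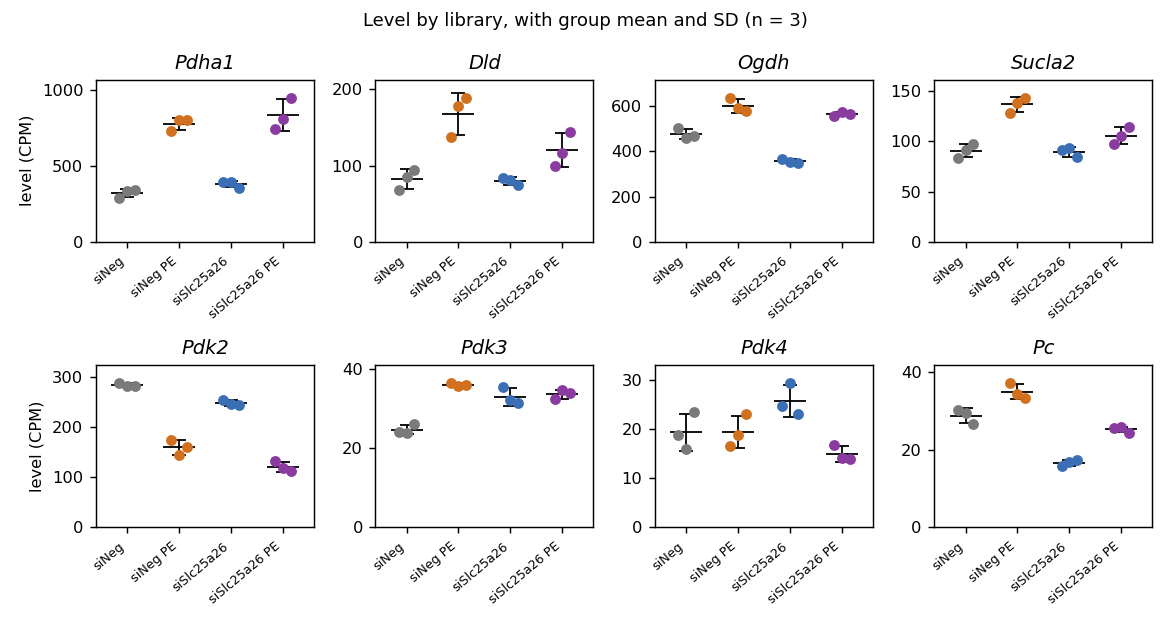
Level (CPM, vertical axis from 0) of 8 members in each library of the 4 groups, with the group mean as a line and the SD as a bar (n = 3 libraries); siSlc25a26 PE is the group as labelled. Pdha1 rises and Pdk2 falls with PE in both siRNA groups, while Pdk3 is lowest in siNeg and between 31.3 and 36.5 CPM in the other groups.

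The kinases and phosphatases that set the activity of the complex did not move as a block. Pdk2, the highest of the 4 kinase genes per gene length, fell with PE in both siRNA groups. Its level was 287, 281 and 281 CPM (siNeg), 173, 144 and 159 CPM (siNeg PE), 254, 246 and 243 CPM (siSlc25a26) and 131, 118 and 112 CPM (siSlc25a26 PE, as labelled). No library with PE reached the level of any library without it. The fall was 1.80-fold in siNeg (log2 fold change -0.85, SE 0.069, edgeR adjusted p = 6.15e-05) and 2.04-fold in siSlc25a26 (log2 fold change -1.03, SE 0.062, edgeR adjusted p = 2.26e-06). Pdk2 was also lower in siSlc25a26 than in siNeg without PE (log2 fold change -0.22, edgeR adjusted p = 0.00398) and, as labelled, under PE (log2 fold change -0.41, edgeR adjusted p = 0.00551).

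Pdk3, another of these kinases, went the other way in siNeg and showed no such change in siSlc25a26. It stood at 24.1, 23.9 and 26.0 CPM (siNeg), 36.5, 35.7 and 36.0 CPM (siNeg PE), 35.6, 32.2 and 31.3 CPM (siSlc25a26) and 32.4, 34.7 and 33.9 CPM (siSlc25a26 PE, as labelled). The siNeg libraries were the low ones, and the other 3 groups lay close together. PE gave a 1.45-fold rise in siNeg (log2 fold change 0.54, SE 0.064, edgeR adjusted p = 0.000382) and a log2 fold change of 0.04 in siSlc25a26 that did not pass. Without PE, Pdk3 was 1.32-fold higher in siSlc25a26 than in siNeg (log2 fold change 0.40, SE 0.074, edgeR adjusted p = 0.00264). The difference between the PE effects was -0.52 on the log2 scale (SE 0.091, edgeR adjusted p = 0.00347), and it passed in all 12 fits that left out a library.

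Pdk4, the kinase gene known for its induction by fasting and fatty acids, had low counts and wider spread. Its level was 18.7, 15.8 and 23.3 CPM (siNeg), 16.6, 18.7 and 23.0 CPM (siNeg PE), 24.6, 29.3 and 23.0 CPM (siSlc25a26) and 16.7, 14.0 and 13.9 CPM (siSlc25a26 PE, as labelled). The siNeg and siNeg PE libraries overlapped, whereas all siSlc25a26 libraries were above all those labelled siSlc25a26 PE. Its log2 fold change with PE was -0.00078 in siNeg (SE 0.17), and in siSlc25a26 it fell 1.71-fold (log2 fold change -0.78, SE 0.11, edgeR adjusted p = 0.000413). The difference between the effects was -0.79 (SE 0.22, edgeR adjusted p = 0.0331). It passed in 4 of 12 fits that left out a library, with values from -0.95 to -0.65, and did not pass without siNeg replicate 1 or 2, siNeg PE replicate 2 or 3, siSlc25a26 replicate 1 or 2, or siSlc25a26 PE replicate 2 or 3. Between the siRNAs Pdk4 did not pass without PE (log2 fold change 0.38, edgeR adjusted p = 0.0503), and it passed when siNeg replicate 3 was left out (0.52) and under 7 of the 9 other settings (0.37 to 0.48). It was lower as labelled under PE (log2 fold change -0.39, edgeR adjusted p = 0.0345), a call lost without replicate 2 or 3 of either group (-0.42 to -0.28) and kept under 6 of the 9 other settings.

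Pdk1 stood at 95.0, 101 and 106 CPM (siNeg), 97.5, 93.0 and 92.5 CPM (siNeg PE), 93.6, 96.7 and 98.1 CPM (siSlc25a26) and 76.9, 79.0 and 79.2 CPM (siSlc25a26 PE, as labelled). The siNeg and siNeg PE libraries overlapped (log2 fold change -0.11), while Pdk1 fell 1.22-fold with PE in siSlc25a26 (log2 fold change -0.28, SE 0.049, edgeR adjusted p = 0.00121). The difference between these effects did not pass (edgeR adjusted p = 0.0924), and it passed without siNeg replicate 3 (-0.24) and on both FPKM scales (-0.23 and -0.24). Under PE it was lower in the libraries labelled siSlc25a26 PE (log2 fold change -0.28, edgeR adjusted p = 0.00666).

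Of the phosphatases, which reactivate the complex, Pdp1 stood at 49.3, 62.0 and 60.9 CPM (siNeg), 52.2, 52.6 and 60.3 CPM (siNeg PE), 49.4, 53.7 and 51.1 CPM (siSlc25a26) and 37.8, 39.5 and 37.6 CPM (siSlc25a26 PE, as labelled). The libraries labelled siSlc25a26 PE were below all others. Pdp1 fell 1.33-fold with PE in siSlc25a26 (log2 fold change -0.41, SE 0.059, edgeR adjusted p = 0.000424) and had a log2 fold change of -0.07 in siNeg, a difference that did not pass (edgeR adjusted p = 0.0759) except under 3 of the 8 other settings (-0.47 to -0.37), the FPKM scales and the replicate block. Between the siRNAs it did not pass without PE (log2 fold change -0.18, edgeR adjusted p = 0.117), except when siNeg replicate 1 was left out (-0.29), and it was lower as labelled under PE (log2 fold change -0.53, edgeR adjusted p = 0.000604). Pdp2 was low, at 6.16, 6.41 and 6.46 CPM (siNeg), 8.48, 8.82 and 8.82 CPM (siNeg PE), 7.36, 8.60 and 7.71 CPM (siSlc25a26) and 8.66, 10.8 and 9.85 CPM (siSlc25a26 PE, as labelled). It rose 1.36-fold with PE in siNeg (log2 fold change 0.45, SE 0.096, edgeR adjusted p = 0.00606) and 1.25-fold in siSlc25a26 (log2 fold change 0.32, edgeR adjusted p = 0.0439), where the call was lost without any library other than siSlc25a26 PE replicate 1 (0.25 to 0.38). That call was kept under only 4 of the 9 other settings (0.11 to 0.32). Between the siRNAs without PE, Pdp2 did not pass (log2 fold change 0.29), and this held under 5 of the 9 other settings. Under PE, as labelled, it did not pass either (0.16).

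Per gene length, the summed level of the 4 kinase genes was 202 ± 2.30 FPKM in siNeg, 135 ± 7.89 FPKM in siNeg PE, 190.4 ± 4.35 FPKM in siSlc25a26 and 102 ± 3.93 FPKM in the libraries labelled siSlc25a26 PE. Pdk2 made up 69.2% ± 1.15 (SD, n = 3) of this sum in siNeg and 55.9% ± 1.70 in siNeg PE, and 65.6% ± 0.42 and 53.0% ± 2.01 in siSlc25a26 and its PE group. Pdk1 made up 21.8% ± 0.573, 28.2% ± 1.36, 21.2% ± 0.635 and 28.8% ± 1.82 in the same order. The share of Pdk3 was 5.55% ± 0.118 in siNeg and 10.8% ± 0.36 in siNeg PE, then 8.08% ± 0.36 and 13.3% ± 0.69 in the siSlc25a26 groups. Pdk4 stayed between 3.44% and 5.10% by group mean. These shares are described without a test.

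**Figure D4:**
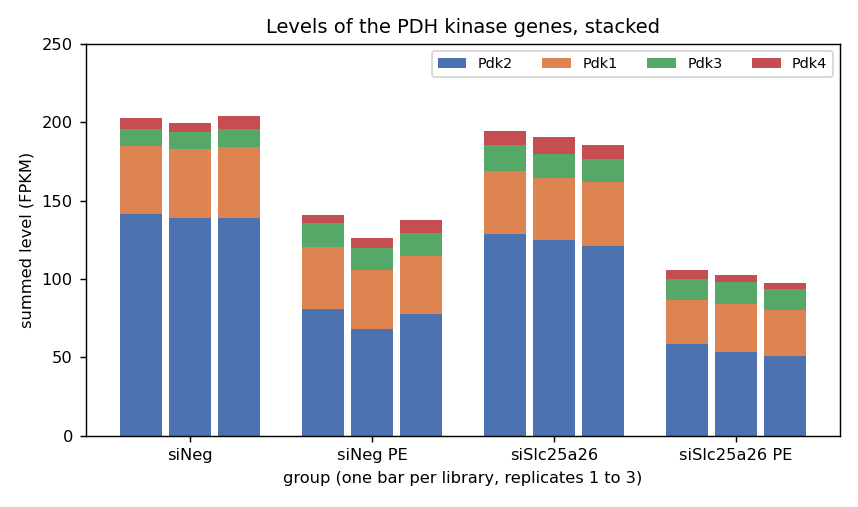
FPKM of Pdk2, Pdk1, Pdk3 and Pdk4 stacked for each library (horizontal axis, 3 bars per group, replicates 1 to 3; siSlc25a26 PE is the group as labelled; vertical axis from 0). The stack is lower in both PE groups, and most of the drop is in the Pdk2 segment.

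At the entry of the cycle, Cs, which condenses acetyl-CoA with oxaloacetate, rose with PE and was lower in siSlc25a26. It stood at 771, 739 and 741 CPM (siNeg), 905, 832 and 843 CPM (siNeg PE), 610.4, 620.2 and 602 CPM (siSlc25a26) and 796, 755 and 774 CPM (siSlc25a26 PE, as labelled). PE raised it 1.14-fold in siNeg (log2 fold change 0.18, SE 0.054, edgeR adjusted p = 0.0217) and 1.28-fold in siSlc25a26 (log2 fold change 0.35, SE 0.045, edgeR adjusted p = 0.000204), and the first call was lost without siNeg replicate 2 or 3 or siNeg PE replicate 1 (0.16 to 0.17). Cs was lower in siSlc25a26 without PE (log2 fold change -0.32, SE 0.046, edgeR adjusted p = 0.000571). Under PE, as labelled, it did not pass (log2 fold change -0.16, edgeR adjusted p = 0.0782), and it was called lower without siNeg PE replicate 3 (-0.20) and under 5 of the 9 other settings (-0.22 to -0.15).

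The 3 subunits of the NAD-dependent isocitrate dehydrogenase of the cycle did not change together. Idh3a, the catalytic alpha subunit, stood at 217, 227 and 226 CPM (siNeg), 353, 343 and 327 CPM (siNeg PE), 223, 229 and 236 CPM (siSlc25a26) and 359, 364 and 386 CPM (siSlc25a26 PE, as labelled). It rose 1.51-fold in siNeg (log2 fold change 0.60, SE 0.049, edgeR adjusted p = 6.13e-05) and 1.62-fold in siSlc25a26 (log2 fold change 0.70, SE 0.052, edgeR adjusted p = 7.83e-06), with no overlap, and had log2 fold changes between the siRNAs of 0.01 and 0.11 that did not pass. Idh3b rose by 1.11-fold and 1.12-fold with PE. The siNeg call of Idh3b (edgeR adjusted p = 0.0451) held without siNeg PE replicate 3 and in no other fit that left out a library (0.13 to 0.17), and the siSlc25a26 call was lost without siSlc25a26 replicate 2 or 3 (0.14 to 0.15). Idh3g instead fell with PE by 1.19-fold (log2 fold change -0.25, edgeR adjusted p = 0.0113, lost without siNeg PE replicate 2 at -0.22) and 1.22-fold (log2 fold change -0.29, edgeR adjusted p = 0.00359). Both were lower in siSlc25a26, Idh3b by 1.33-fold and Idh3g by 1.33-fold without PE.

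The NADP-dependent enzymes differed from Idh3a. Mitochondrial Idh2 stood at 1439.9, 1415 and 1322 CPM (siNeg), 1229, 1114 and 1130.1 CPM (siNeg PE), 1449.8, 1435 and 1362 CPM (siSlc25a26) and 1077, 1018 and 908 CPM (siSlc25a26 PE, as labelled). It fell 1.21-fold with PE in siNeg (log2 fold change -0.28, SE 0.062, edgeR adjusted p = 0.00656) and 1.40-fold in siSlc25a26 (log2 fold change -0.49, SE 0.063, edgeR adjusted p = 0.00023), and the difference between these falls did not pass (edgeR adjusted p = 0.136) except on the FPKM scales and with the replicate block (-0.35 to -0.24). Without PE the siRNA groups overlapped. Under PE the libraries labelled siSlc25a26 PE lay below siNeg PE without passing (log2 fold change -0.22, edgeR adjusted p = 0.0525), and passed without siNeg PE replicate 3 or siSlc25a26 PE replicate 1 (-0.27 to -0.26) and under 7 of the 9 other settings (-0.29 to -0.21). Cytosolic Idh1 did not pass for PE (log2 fold changes -0.06 and -0.09) and was lower in siSlc25a26 without PE (log2 fold change -0.21, edgeR adjusted p = 0.0246) and under PE as labelled (log2 fold change -0.25, edgeR adjusted p = 0.0397), each call lost in 3 or 4 of the 6 fits that left out a library. Leaving out siNeg replicate 2 or siSlc25a26 replicate 1 or 3 ended the call without PE, and leaving out siNeg PE replicate 2 or 3 or siSlc25a26 PE replicate 1 or 2 ended the call under PE, with values from -0.24 to -0.18.

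All 3 genes of the 2-oxoglutarate dehydrogenase complex, which releases carbon dioxide on the way to succinyl-CoA, rose with PE in both siRNA groups. The share of all genes that were higher was 25.2% in siNeg and 26.4% in siSlc25a26. Ogdh, its first enzyme, stood at 503, 461 and 467 CPM (siNeg), 637, 589.9 and 577 CPM (siNeg PE), 367, 351 and 350.0 CPM (siSlc25a26) and 555, 573 and 564 CPM (siSlc25a26 PE, as labelled). The siSlc25a26 libraries were the lowest, and both PE groups lay above every library without PE. Ogdh rose 1.25-fold in siNeg (log2 fold change 0.32, SE 0.060, edgeR adjusted p = 0.00303) and 1.60-fold in siSlc25a26 (log2 fold change 0.67, SE 0.045, edgeR adjusted p = 4.25e-06). This difference between the PE effects passed, at 0.33 (SE 0.074, edgeR adjusted p = 0.0135), also in all 12 fits that left out a library and under 7 of the 8 other settings, with FPKM + 0.1 (0.21) the one that lost it. Ogdh was lower in siSlc25a26 without PE (log2 fold change -0.45, SE 0.052, edgeR adjusted p = 0.00018), while under PE its log2 fold change of -0.10 did not pass.

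Dld, the dihydrolipoamide dehydrogenase shared with the PDH complex, stood at 67.5, 84.7 and 93.6 CPM (siNeg), 137, 178 and 189 CPM (siNeg PE), 83.3, 81.7 and 74.2 CPM (siSlc25a26) and 99.5, 117 and 144 CPM (siSlc25a26 PE, as labelled). Each PE group lay above the group without PE of the same siRNA. The rise was 2.03-fold in siNeg (log2 fold change 1.02, SE 0.15, edgeR adjusted p = 0.000914) and 1.52-fold in siSlc25a26 (log2 fold change 0.60, SE 0.12, edgeR adjusted p = 0.00286), and the difference between the effects, -0.44, did not pass (edgeR adjusted p = 0.202). Under PE, Dld was lower as labelled (log2 fold change -0.49, edgeR adjusted p = 0.0275) although the groups overlapped, and the call was lost without siNeg PE replicate 2 or 3 or siSlc25a26 PE replicate 1 or 2 (-0.47 to -0.37). Dlst, the succinyltransferase core, rose 1.15-fold in siNeg (log2 fold change 0.20, edgeR adjusted p = 0.0218) and 1.28-fold in siSlc25a26 (log2 fold change 0.36, edgeR adjusted p = 0.000405), and the first call was lost without siNeg replicate 2 or 3 or siNeg PE replicate 1 or 2 (0.16 to 0.21). Dlst was lower in siSlc25a26 both without PE (log2 fold change -0.47, edgeR adjusted p = 0.000289) and under PE as labelled (log2 fold change -0.32, edgeR adjusted p = 0.00306).

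Succinyl-CoA ligase pairs a common alpha subunit, Suclg1, with a beta subunit that makes the enzyme form ATP (Sucla2) or GTP (Suclg2), and the 2 beta genes moved in opposite directions with PE. Sucla2 stood at 83.6, 91.2 and 97.3 CPM (siNeg), 128, 138 and 143 CPM (siNeg PE), 91.0, 93.2 and 84.2 CPM (siSlc25a26) and 97.5, 105 and 114 CPM (siSlc25a26 PE, as labelled). It rose 1.49-fold in siNeg (log2 fold change 0.58, SE 0.072, edgeR adjusted p = 0.000486) and 1.19-fold in siSlc25a26 (log2 fold change 0.25, edgeR adjusted p = 0.0159, lost without siSlc25a26 replicate 3 at 0.21), without overlap in either. The difference between these rises was -0.35 (SE 0.10, edgeR adjusted p = 0.0461), and it passed in 4 of 12 fits that left out a library and under 6 of the 8 other settings. It did not pass without siNeg replicate 1 or 2, siNeg PE replicate 2 or 3, or replicate 1 or 2 of either siSlc25a26 group (-0.36 to -0.30). Sucla2 did not pass between the siRNAs without PE and was lower as labelled under PE (log2 fold change -0.38, SE 0.075, edgeR adjusted p = 0.00374).

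Suclg2 fell by 1.12-fold in siNeg (log2 fold change -0.16, edgeR adjusted p = 0.04) and 1.12-fold in siSlc25a26 (log2 fold change -0.16, edgeR adjusted p = 0.0312). Both are small changes: the first was lost without siNeg replicate 2 or 3 or siNeg PE replicate 2 or 3 (-0.16 to -0.14), the second without siSlc25a26 PE replicate 2 or siSlc25a26 replicate 2 or 3 (-0.16 to -0.12). Suclg1 did not pass with PE in siNeg (log2 fold change -0.09, edgeR adjusted p = 0.142) and fell in siSlc25a26 (log2 fold change -0.20, edgeR adjusted p = 0.0274), a call lost without replicate 2 or 3 of either group (-0.20 to -0.15). Suclg1 was lower in siSlc25a26 without PE (log2 fold change -0.16, edgeR adjusted p = 0.0186, lost without siNeg replicate 2 or siSlc25a26 replicate 1 at -0.17 and -0.14) and under PE as labelled (log2 fold change -0.28, edgeR adjusted p = 0.0143, lost without siNeg PE replicate 1 or siSlc25a26 PE replicate 2 at -0.24 and -0.27).

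Succinate dehydrogenase, which is also complex II of the respiratory chain, was lower in siSlc25a26 without PE in all 4 subunit genes. In that comparison 21.7% of all genes were lower. Sdha, the flavoprotein, stood at 611, 619 and 595 CPM (siNeg), 642, 617 and 632 CPM (siNeg PE), 497, 504 and 470.4 CPM (siSlc25a26) and 508, 473 and 475 CPM (siSlc25a26 PE, as labelled). The siNeg and siNeg PE libraries all lay above both siSlc25a26 groups. Sdha was 1.26-fold lower without PE (log2 fold change -0.34, SE 0.049, edgeR adjusted p = 0.000682) and 1.31-fold lower under PE as labelled (log2 fold change -0.39, SE 0.059, edgeR adjusted p = 0.00104), and its log2 fold changes with PE, 0.04 and -0.01, did not pass. The membrane anchors Sdhc and Sdhd were lower by 1.43-fold and 1.28-fold without PE and by 1.41-fold and 1.35-fold under PE as labelled, and neither passed for PE. Sdhb, the iron-sulfur subunit, rose with PE in siNeg (log2 fold change 0.29, edgeR adjusted p = 0.00687) and in siSlc25a26 (log2 fold change 0.31, edgeR adjusted p = 0.00149). Its lower level in siSlc25a26 without PE (log2 fold change -0.21, edgeR adjusted p = 0.015) was lost without siNeg replicate 2 or siSlc25a26 replicate 1 or 2 (-0.21 to -0.19), and under PE it did not pass (log2 fold change -0.20, edgeR adjusted p = 0.0612). It was called lower there without siNeg PE replicate 3 or siSlc25a26 PE replicate 1 (-0.28 and -0.24) and under 5 of the 9 other settings (-0.24 to -0.19).

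From fumarate to oxaloacetate, Fh and Mdh2 were lower in siSlc25a26. Fh, the fumarate hydratase, stood at 188, 199 and 183 CPM (siNeg), 251, 243 and 235 CPM (siNeg PE), 136, 146 and 134 CPM (siSlc25a26) and 184, 179 and 185 CPM (siSlc25a26 PE, as labelled). It rose 1.27-fold with PE in siNeg (log2 fold change 0.34, SE 0.053, edgeR adjusted p = 0.00129) and 1.32-fold in siSlc25a26 (log2 fold change 0.40, SE 0.051, edgeR adjusted p = 0.000203). The siRNA groups did not overlap at either PE state, with Fh lower by 1.39-fold without PE (log2 fold change -0.48, edgeR adjusted p = 0.000186) and 1.34-fold under PE as labelled (log2 fold change -0.42, edgeR adjusted p = 0.000614). Mdh2, the mitochondrial malate dehydrogenase, stood at 998, 968 and 904 CPM (siNeg), 1176, 1053 and 1045 CPM (siNeg PE), 719, 729.5 and 685 CPM (siSlc25a26) and 915, 877 and 837 CPM (siSlc25a26 PE, as labelled). With PE it did not pass in siNeg (log2 fold change 0.18, edgeR adjusted p = 0.0536; 3 of the 9 other settings called it higher), rose 1.24-fold in siSlc25a26 (log2 fold change 0.31, SE 0.050, edgeR adjusted p = 0.000805), and the difference between these effects did not pass (edgeR adjusted p = 0.444). Mdh2 was lower by 1.37-fold without PE (log2 fold change -0.45, edgeR adjusted p = 0.000264) and by 1.25-fold under PE as labelled (log2 fold change -0.33, edgeR adjusted p = 0.00731).

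Of the enzymes that refill the cycle, Pc, the pyruvate carboxylase, had the largest difference between the siRNAs without PE of all members. It stood at 30.3, 29.6 and 26.6 CPM (siNeg), 37.2, 34.4 and 33.5 CPM (siNeg PE), 15.8, 16.8 and 17.3 CPM (siSlc25a26) and 25.5, 25.8 and 24.5 CPM (siSlc25a26 PE, as labelled). The siSlc25a26 libraries were the lowest, and those labelled siSlc25a26 PE lay below every siNeg library. Pc was 1.77-fold lower without PE (log2 fold change -0.82, SE 0.083, edgeR adjusted p = 8.01e-05) and 1.40-fold lower under PE as labelled (log2 fold change -0.48, SE 0.075, edgeR adjusted p = 0.00111). PE raised Pc 1.53-fold in siSlc25a26 (log2 fold change 0.61, SE 0.070, edgeR adjusted p = 0.000108) and 1.21-fold in siNeg (log2 fold change 0.27, edgeR adjusted p = 0.0187), the latter lost without siNeg replicate 3 or siNeg PE replicate 1 or 2 (0.21 to 0.29). The difference between the PE effects was 0.32 and did not pass (edgeR adjusted p = 0.0563), and it passed without siNeg replicate 3 or siNeg PE replicate 1 (0.37 to 0.38) and under 3 of the 8 other settings (0.32 to 0.35).

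Me2, the mitochondrial NAD-dependent malic enzyme, stood at 18.3, 18.5 and 20.0 CPM (siNeg), 29.8, 29.7 and 28.5 CPM (siNeg PE), 13.5, 16.3 and 12.9 CPM (siSlc25a26) and 20.4, 23.0 and 24.0 CPM (siSlc25a26 PE, as labelled). It rose 1.53-fold with PE in siNeg (log2 fold change 0.62, SE 0.068, edgeR adjusted p = 0.000267) and 1.59-fold in siSlc25a26 (log2 fold change 0.67, SE 0.11, edgeR adjusted p = 0.000778). Me2 was lower in siSlc25a26 than in siNeg without PE (log2 fold change -0.44, edgeR adjusted p = 0.00709) and under PE as labelled (log2 fold change -0.39, edgeR adjusted p = 0.00591). Its NADP-dependent relative Me3 did not pass for PE, at -0.08 and 0.15, and was lower in siSlc25a26 without PE (log2 fold change -0.45, edgeR adjusted p = 0.00206). Under PE Me3 did not pass (log2 fold change -0.22, edgeR adjusted p = 0.0833), and it was called lower without siNeg PE replicate 3 (-0.31), with the replicate block (-0.22) and with all 12 libraries in 1 fit (-0.21).

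The 3 shuttle enzymes outside the cycle were lower in siSlc25a26 in both siRNA comparisons and did not pass for PE in either. Lower genes made up 21.7% of all genes without PE and 20.1% under PE. Got1, the cytosolic aspartate transaminase, stood at 267, 257 and 254 CPM (siNeg), 284, 258 and 268 CPM (siNeg PE), 219, 225 and 232 CPM (siSlc25a26) and 239, 215 and 210.1 CPM (siSlc25a26 PE, as labelled). It was lower by 1.17-fold without PE (log2 fold change -0.23, SE 0.048, edgeR adjusted p = 0.00459), where the groups did not overlap, and by 1.23-fold under PE as labelled (log2 fold change -0.30, SE 0.070, edgeR adjusted p = 0.00954), which was lost without siSlc25a26 PE replicate 2 (-0.27). Its mitochondrial partner Got2 was lower by 1.24-fold without PE (log2 fold change -0.31, edgeR adjusted p = 0.00084) and by 1.20-fold under PE as labelled (log2 fold change -0.26, edgeR adjusted p = 0.0152, lost without siNeg PE replicate 1 or siSlc25a26 PE replicate 2 or 3 at -0.25 to -0.20). Cytosolic Mdh1 was lower by 1.37-fold (log2 fold change -0.45, edgeR adjusted p = 0.000401) and 1.45-fold (log2 fold change -0.53, edgeR adjusted p = 0.00121). With PE the log2 fold changes of Mdh1 were 0.20 and 0.13, and each passed without replicate 3 of its PE group (0.26 and 0.15) and under 3 of the 9 other settings. The lack of a call for Got2 with PE held under 6 of the 9 other settings in siNeg (-0.16 to -0.10). In siSlc25a26 the lack of a PE call held under 7 of the 9 other settings for both Got1 and Got2.

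Across all members, testing whether PE acted differently in the siRNA groups gave 1 gene with a higher effect in siSlc25a26, Ogdh, and 3 with a lower effect, Pdk4, Pdk3 and Sucla2. The background of 14097 genes was 5.48% higher and 5.73% lower, and Pdk4 alone also passed 1.5-fold (background 2.16% higher, 3.34% lower). The median difference was -0.060 over members and -0.045 over all genes. On the FPKM scale, where the median of all genes was -0.11 to -0.14, the numbers were 1 and 10 (log2 of FPKM + 1) or 0 and 8 (FPKM + 0.1). Of all 14097 genes, 560 were higher and 1759 lower with FPKM + 1, and 485 and 1650 with FPKM + 0.1. Beside 0 higher members with FPKM + 0.1 by limma, edgeR and limma-voom called 1 and DESeq2 called 2.

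Ratios between partner genes were taken from FPKM in each library for 12 pairs fixed by name, in 4 comparisons, which makes 48 tests. The 2 beta subunits of succinyl-CoA ligase came closer with PE, as Sucla2/Suclg2 was 0.517 ± 0.0216 (SD, n = 3) in siNeg and 0.866 ± 0.078 in siNeg PE, and 0.526 ± 0.0335 and 0.696 ± 0.0612 in siSlc25a26 and its PE group as labelled. The ratio Idh3a/Idh3b was 0.663 ± 0.0251 in siNeg, 0.899 ± 0.0139 in siNeg PE, 0.907 ± 0.0506 in siSlc25a26 and 1.30 ± 0.0829 in siSlc25a26 PE. The phosphatase ratio Pdp1/Pdp2 was 7.55 ± 0.74, 5.26 ± 0.382, 5.43 ± 0.199 and 3.29 ± 0.316 in the same order. The ratio of the carboxylase to the PDH alpha subunit, Pc/Pdha1, was 0.0629 ± 0.00934 in siNeg and 0.0317 ± 0.00346 in siNeg PE, 0.0307 ± 0.00299 in siSlc25a26 and 0.0215 ± 0.0031 in siSlc25a26 PE. Mdh2/Mdh1 was 1.49 ± 0.0915, 1.47 ± 0.0758 and 1.49 ± 0.0224 in the other groups and 1.69 ± 0.00622 in siSlc25a26 PE. In 35 of the 48 tests the groups did not overlap. How often this happens for other pairs of genes was not computed, so the count says nothing particular about these pairs. With 3 libraries against 3, the two-sided exact permutation test cannot go below p = 0.1, and the smallest adjusted p over the 48 tests was 0.137, so no ratio could pass.

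Other genes of the pathway, a list of 29 that were not members, gave 26 that could be tested. Pdha2 had no row, and Sdhaf3 and Pck1 were under the filter. With PE in siNeg 7 were higher and 6 lower, close to the 25.2% and 24.3% of all genes. With PE in siSlc25a26 9 were higher and 4 lower, beside 26.4% and 26% of all genes. In siSlc25a26 against siNeg, 16 were lower and 1 higher without PE, where 21.7% and 23.3% of all genes were, and 17 lower and 2 higher under PE as labelled, where 20.1% of all genes were called in each direction. Ogdhl, a relative of Ogdh, was 2.33-fold lower without PE (log2 fold change -1.22, SE 0.15, edgeR adjusted p = 0.0003) and 2.15-fold lower under PE as labelled (log2 fold change -1.11, SE 0.14, edgeR adjusted p = 0.000296), and fell with PE in siNeg (log2 fold change -0.69, edgeR adjusted p = 0.00267). Dhtkd1, which oxidises 2-oxoadipate, was 2.12-fold and 1.93-fold lower in the same comparisons (log2 fold change -1.09, edgeR adjusted p = 0.000464 and log2 fold change -0.95, edgeR adjusted p = 0.000299).

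Of the carriers that connect these enzymes, Mpc1 and Mpc2 form the mitochondrial pyruvate carrier. Mpc1 rose 1.68-fold with PE in siSlc25a26 (log2 fold change 0.74, SE 0.050, edgeR adjusted p = 4.52e-06) and 1.24-fold in siNeg (log2 fold change 0.32, edgeR adjusted p = 0.0488), where the groups overlapped and the call was lost without siNeg replicate 1 or 3 or siNeg PE replicate 1 or 2 (0.25 to 0.28). Mpc1 was lower in siSlc25a26 without PE (log2 fold change -0.48, edgeR adjusted p = 0.00314). Mpc2 rose with PE in siNeg (log2 fold change 0.31, edgeR adjusted p = 0.00619) and was lower under PE as labelled (log2 fold change -0.42, edgeR adjusted p = 0.00182). Slc25a13, an aspartate-glutamate carrier of the shuttle, rose 1.30-fold and 1.32-fold with PE and was lower by 1.31-fold and 1.30-fold between the siRNAs. The related carrier Slc25a12 did not pass in any comparison, with log2 fold changes from -0.15 to 0.07. With PE in siSlc25a26 this held under only 5 of the 9 other settings (-0.30 to -0.13). It held under 7 of 9 between the siRNAs without PE and under 6 of 8 for the difference between PE effects. The oxoglutarate carrier Slc25a11 did not pass for PE and was lower in siSlc25a26 (log2 fold change -0.31, edgeR adjusted p = 0.00183 without PE, log2 fold change -0.45, edgeR adjusted p = 0.00225 under PE). Lias, the lipoic acid synthase whose product Dlat and Dlst carry, likewise did not pass for PE and was lower (log2 fold change -0.35, edgeR adjusted p = 0.00439 without PE, log2 fold change -0.49, edgeR adjusted p = 0.000953 under PE).

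Slc25a10, the dicarboxylate carrier, stood at 27.6, 27.9 and 27.9 CPM (siNeg), 27.5, 25.2 and 24.5 CPM (siNeg PE), 30.4, 30.6 and 32.0 CPM (siSlc25a26) and 21.1, 19.6 and 18.7 CPM (siSlc25a26 PE, as labelled). It did not pass with PE in siNeg (-0.12) and fell 1.56-fold in siSlc25a26 (log2 fold change -0.64, edgeR adjusted p = 7.99e-05), and the difference between the effects passed (-0.54, edgeR adjusted p = 0.00345). Acly, the cytosolic ATP citrate lyase, had a PE effect that was higher in siSlc25a26 by 0.21 (edgeR adjusted p = 0.0308), which passed in 4 of 12 fits that left out a library.

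Levels of the marker genes moved with these comparisons. Between siNeg and siSlc25a26 without PE, 7 of 10 fibroblast markers and 6 of 7 smooth muscle and mural markers were lower, with median log2 fold changes of -0.66 and -0.99, and of 12 cardiomyocyte markers 6 were lower and 1 higher (median -0.14). Of the macrophage and leukocyte markers 8 could be tested there, and 5 were lower (median -0.84). Under PE, as labelled, 8 of 10 fibroblast markers were lower (median -0.40), while smooth muscle and mural markers and cardiomyocyte markers were 3 higher and 3 lower each. With PE in siNeg, 8 cardiomyocyte markers were higher and 1 lower (median 0.53), and 5 fibroblast markers were lower and 2 higher (median -0.33). In the same comparison 6 of 8 macrophage and leukocyte markers tested were lower (median -0.98), and 4 smooth muscle and mural markers were lower and 2 higher (median -0.71). With PE in siSlc25a26, 10 cardiomyocyte markers were higher and 1 lower (median 0.79), and 4 fibroblast markers were lower and 1 higher (median -0.22). Of the macrophage and leukocyte markers 2 of 9 were lower there (median -0.14), and of the smooth muscle and mural markers 1 was lower and 3 higher (median 0.041). The part of these shifts in the members' values was not tested.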

How the data were processed

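Per gene and library, the values the authors deposited are estimated counts, not normalised between libraries, for 12 libraries of NRVM RNA, of which about 21% of the values in each library are not whole, and they were rounded here to whole numbers. The authors also deposited FPKM values of the same libraries, which are scaled by gene length and library total. The submitters' processing notes name the build Rnor_6.0 and the tools HISAT and Bowtie2. Versions, roles, the counting program, the annotation and the use of strand are not given in the sources used here, so reads of overlapping or antisense genes may not be told apart. Groups and replicate numbers came from the sample labels, and 0 columns of per-sample values were left unused.

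Counts were tested in edgeR 4.0.16 (R 4.3.3) with TMM factors, filterByExpr and the quasi-likelihood test, with Benjamini-Hochberg adjustment over all genes tested. Each comparison was fitted on its own 6 libraries, and the difference between PE effects on all 12. CPM values use TMM factors of all 12 libraries, and SE values of log2 fold changes come from the F statistic. DESeq2 1.42.0, limma 3.58.1 (voom on counts, and log2 of FPKM + 1 or FPKM + 0.1), other filters, a replicate block and the removal of each library were alternatives. The fit was tested on simulated data. The closest replicates differed by a chi-square of 5.57 per gene, so no library was counted as a copy of another. P-values rest on 3 libraries per group.

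The members and all gene lists were chosen with earlier results of these data known. Values in every library are given for the PDH kinases and phosphatases, for a lead gene of each step, for members past 1.5-fold and an adjusted p under 0.05 in any comparison, and for members whose PE effects differed. Idh3b is spelled Idh3B in the table and was matched irrespective of case. All 34 members matched RefSeq (assembly GRCr8) by gene ID, and coordinates belong to that assembly and not to the build of the counts. Some genes of the wider pathway list are not reported here by name. Nap1l5 was added as a label check after its values were seen.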

Additional observations from a re-analysis of the deposited data

Results flagged for a closer look

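In 7 genes the PE effect differed between the siRNA groups by the test of the difference itself (edgeR, all 12 libraries, adjusted p under 0.05). The genes looked up were the 34 members, the 26 other pathway genes that could be tested, Slc25a26, Nap1l5, Nppa and Nppb. Of all 14097 genes tested, 5.48% were higher and 5.73% lower, so such calls were about as frequent among all genes. Each value is the log2 effect of PE in siSlc25a26, as labelled, less that in siNeg. Among the members it was 0.33 for Ogdh, -0.52 for Pdk3, -0.79 for Pdk4 and -0.35 for Sucla2. Among the other genes looked up it was 0.21 for Acly, -0.54 for Slc25a10 and 1.06 for Slc25a26, the gene the siRNA is labelled for. The values for Pdk3, Ogdh, Slc25a10 and Slc25a26 passed in all 12 fits that left out a library, and those for Pdk4, Sucla2 and Acly in 4 of 12.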

How the results depend on the processing

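Over 5 tests of 34 members, 2720 values were recomputed under alternatives: 2494 kept their direction and their side of the threshold, 127 lost a call, 97 gained one and 2 reversed. Both reversals were Pdhb with PE in siSlc25a26, -0.036 on either FPKM scale, and Acly, no member, reversed there too (-0.035 and -0.036). Those scales carry no TMM factor, and their all-gene median in that comparison was -0.13 and -0.17. On them the members with PE in siSlc25a26 were 11 higher and 14 lower, those lower with PE in siNeg 7, those higher in siSlc25a26 without PE 4, and for the difference between PE effects 10 (FPKM + 1) or 8 lower and, with FPKM + 0.1, 0 higher. The calls over all genes moved too. With FPKM + 1, 2015 of 13776 genes were higher and 5653 lower with PE in siSlc25a26. With PE in siNeg 3822 of 13719 were lower, and without PE 3774 of 13829 were higher in siSlc25a26. For the difference, 560 of 14097 were higher and 1759 lower. With a 1.5-fold minimum, which by construction calls fewer, the counts were 4 higher and 1 lower with PE in siNeg, 7 and 2 with PE in siSlc25a26, 0 and 1 between the siRNAs without PE, 0 lower under PE, and 0 and 1 for the difference. Members higher in siSlc25a26 without PE numbered 4 with at least 10 counts in every library or with all 12 libraries in 1 fit. DESeq2, or its size factors in edgeR, gave 2 members with a higher PE effect in siSlc25a26. Leaving out a library gave 2 to 4 members lower with PE in siNeg, 1 to 3 higher in siSlc25a26 without PE, and 1 to 2 higher and 1 to 4 lower for the difference between PE effects. From CPM in place of FPKM, the log2 change of Pdk3/Pdk2 with PE in siNeg was 1.39 in place of 1.27. Where construction does not show it, the cause was not tested.

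The main fits did not pair the samples by replicate number, and whether the numbers pair them was not settled. Correlations of same-numbered deviations ran from -0.091 to 0.22, and not every pair of any comparison was above 0.1. Replicates 1 and 3 correlated most with their own number for PE in siNeg (0.14 and 0.22) and between the siRNAs under PE (0.21 and 0.17). For PE in siSlc25a26 no replicate did. With the replicate block, members higher in siSlc25a26 without PE numbered 1, beside 3111 of all 13829 genes. The difference between PE effects had 2 higher and 5 lower members with the block. Of all 14097 genes, 1001 were higher and 1270 lower there, beside 773 and 808 without the block. With PE in siNeg the block gave 19 higher and 6 lower members, beside 4352 higher and 4110 lower of all 13719 genes. Under PE, 26 members were lower between the siRNAs, beside 3300 of all 13671 genes. With PE in siSlc25a26 the members were 16 higher and 6 lower, fewer than without the block. The calls over all 13776 genes fell as well, from 3634 higher and 3585 lower to 3151 and 3175. With 3 libraries per group, changes of about 1.1-fold sit near the threshold, and the PDH phosphatase Pdp2 and the kinase Pdk4 have the fewest reads among the members compared most closely.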
